A study of Mus musculus with 12 samples.

Results

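The 801 regions described here are the hnRNP H binding peaks of mouse striatum whose midpoint lies in the 5' untranslated region (5' UTR) of an annotated transcript. They were chosen from the authors' deposited lists of CLIP peaks for saline-treated and methamphetamine-treated mice, which together hold 14711 distinct positions. A position was taken as a 5' UTR peak when its midpoint fell in a 5' UTR row of the lists and in no 3' UTR row. The lists were called from CLIP libraries of this study and carry a signal value and a q-value per treatment. Beyond those calls, no read count or fold change entered this choice. The 801 peaks make up 5.45% of all listed positions, beside 1935 peaks in 3' UTRs, 1308 in coding exons, 291 in other exons and 10317 in introns. The midpoint of 59 further positions lay in no listed region.

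The study measured which RNAs hnRNP H binds in the striatum 30 min after a methamphetamine injection, and the RNA levels in portions of the same tissue pools. All groups were wild-type C57BL/6J mice of both sexes, aged 50 to 100 days and bred from heterozygous Hnrnph1 mutant males and wild-type females. Every mouse received saline at 10 ml/kg on the first days, and on day 3 either saline again or methamphetamine at 2 mg/kg, intraperitoneally in both cases. Each library came from whole striata of 4 mice (2 females and 2 males) from several litters, with 3 CLIP libraries and 3 RNA-seq libraries per treatment. P-values below therefore measure the spread between pools, not between single mice.

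In CLIP, proteins are crosslinked to the RNA they touch, an antibody pulls down the protein of interest, and the fragments of RNA attached to it are sequenced. hnRNP H is a nuclear RNA-binding protein that recognises runs of guanine through its quasi-RNA recognition motifs, and it is best known for its part in alternative splicing and polyadenylation. A 5' UTR is the stretch of an mRNA between its cap and the start codon, which the small ribosomal subunit scans. Runs of guanine in it can fold into G-quadruplexes, structures that hnRNP H and its relatives have been reported to bind.

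The CLIP libraries held 423057 (saline replicate 2) to 1635338 (saline replicate 3) reads at the positions of the deposited count table, and 4441 to 22913 reads at the 5' UTR peaks. The libraries split along the first principal component (46.6% of the variance of the tested peaks) into saline replicates 1 and 3 with methamphetamine replicate 2, against saline replicate 2 with methamphetamine replicates 1 and 3. The RNA-seq libraries of the same names split into the same sets along their first principal component (65.6% of the variance). RNA-seq depth was 3935160 to 5091839 reads. The 10 markers of striatal projection neurons summed to 12.45 to 13.12 log2 CPM (reads per 1000000 reads) in all 6 RNA-seq libraries, against 7.55 to 9.75 for 7 markers of cortical excitatory neurons. The 6 choroid plexus markers summed to 5.88 to 7.79 in 5 libraries and to 12.27 in methamphetamine replicate 2.

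Stretches of selected 5' UTR peaks are printed below as examples. For each peak below, the 30-base stretch with the most bases in runs of at least 3 G is printed 5' to 3' on the strand of the peak, with those runs in capitals; a peak without such a run is shown by its first 30 bases. The sequences come from GENCODE M21 transcripts (GRCm38) and are written with T. The first 6 are G-rich stretches from genes with many reads or many 5' UTR peaks. Atn1 and Srsf5 are among the 3 peaks with the smallest unadjusted p for a higher signal after methamphetamine. Among peaks on the strand of their 5' UTR, Cdc20 had the highest signal value in the authors' deposited table for saline and Tex29 in that for methamphetamine, and Txnrd3 is one of the 3 peaks with the smallest p for a lower signal.
Syncrip, chr9:88482242-88482271, minus strand: GGGaGGGGaGGGaaGGGGGGtcacgcGGGG
Usp32, chr11:85139811-85139840, minus strand: gccgcgaaggaggcGGGaGGGGGGtGGGGG
Arf3, chr15:98763104-98763133, minus strand: aGGGcGGGcaggaGGGagccGGGGagcGGG
Hdac6, chrX:7947524-7947553, minus strand: ggatGGGGGGGGGGcggtgattGGGtaGGG
Phf23, chr11:69995827-69995856, plus strand: GGGGGGaGGGGGcccggtccGGGagtgcgg
Dlg4, chr11:70029784-70029813, plus strand: ggatggcGGGtGGGtgagagagaGGGaGGG
Atn1, chr6:124756415-124756444, minus strand: ccGGGGGGGccGGGGccgccgccgccgccg
Srsf5, chr12:80945614-80945643, plus strand: ctccgtcgcagactacggacctctccGGGG
Cdc20, chr4:118437172-118437201, minus strand: ctgctgcgagctgtggcaggcggagcccag
Tex29, chr8:11840475-11840504, plus strand: caataagcaGGGactggtttccttctgtcc
Txnrd3, chr6:89643989-89644018, plus strand: tggccccgtagctgtccggtgcgcccgcgg

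The stretch from Syncrip, which encodes the RNA-binding protein hnRNP Q, holds 20 bases in G-runs and its 100-base peak holds 8 such runs. The peak of the Golgi GTPase Arf3 also holds 8 runs, and that of the deubiquitinase Usp32 holds 6. The longest single run in these stretches is the 10 G of Hdac6, the cytoplasmic tubulin deacetylase. The peaks with the strongest deposited signal were of another kind: Cdc20, which encodes an activator of the anaphase-promoting complex, has no run of 3 G in its 100 bases, and Tex29 has 1. The Txnrd3 peak, from a gene for a thioredoxin reductase, also has none.

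The 801 peaks belong to 674 genes, of which 579 have 1 peak and 95 have more. Joined where they adjoin or overlap on a strand, the peaks form 730 separate regions. Dlg4, which encodes the postsynaptic scaffold PSD-95, carries 11, Phf23, a PHD finger gene, carries 6, and Hdac6 carries 5. For 51 peaks the only 5' UTR row lies on the opposite strand to the peak, Gas1, Csrnp1 and Tmbim1 among them. These are listed 5' UTR peaks by position but not by strand, and the counts below are given for all 801 unless stated.

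For 750 peaks the GENCODE M21 annotation gave a 5' UTR of the gene on the same strand. Their midpoints lay in the first exon in 702 cases (93.6%, 95% Wilson interval 91.6 to 95.1). These and the other intervals over peaks cover counting error only, and some peaks adjoin or overlap. The median distance from the transcript start to the peak midpoint was 116 bases (quartiles 51 and 224), and from the midpoint to the start codon 178 bases (quartiles 86 and 293), in 5' UTRs with a median length of 321 bases. Midpoints lay within 100 bases of the transcript start for 336 peaks (44.8%) and within 100 bases of the start codon for 216 (28.8%). The window held the first base of the start codon in 105 peaks (14%).

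**Figure D1:**
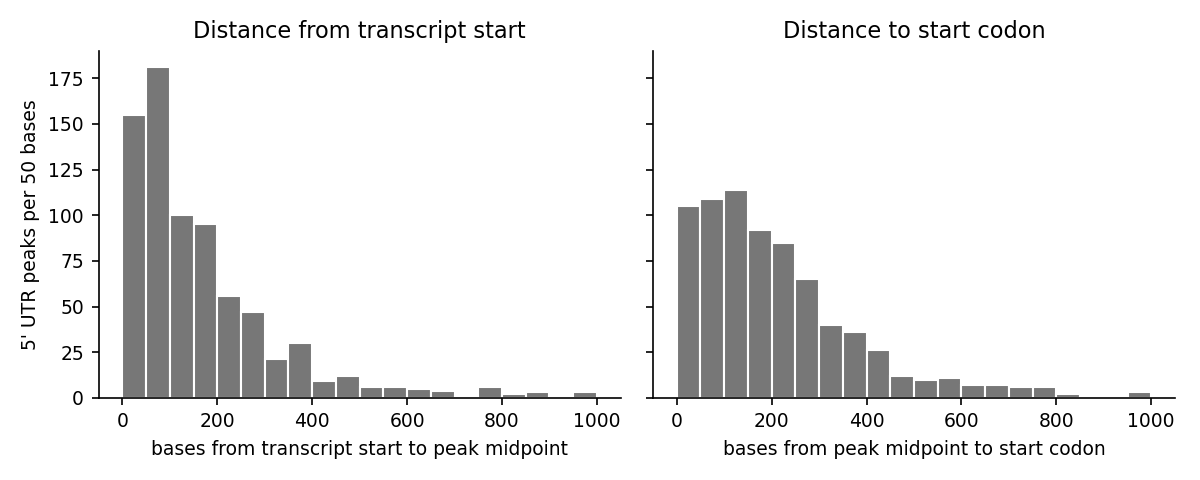
Number of 5' UTR peaks per 50 bases of distance from the annotated transcript start to the peak midpoint (left) and from the midpoint to the start codon (right), for 750 peaks, drawn up to 1000 bases. The counts are highest in the first 100 bases after the transcript start, with 336 peaks, and spread more evenly before the start codon.

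Most of these peaks are 5' UTR in some transcripts of their gene and not in others. Only 165 of 750 (22.0%) are 5' UTR in every coding transcript, including genes with a single one, and 378 (50.4%) are 5' UTR in 1 of several. In the deposited lists 550 of the 801 (68.7%) also carry an intron row and 22 a coding exon row. For such a peak, reads of spliced mRNA and of unspliced precursor cannot be told apart from the counts. Dlg4 shows this: its 11 peaks lie between chr11:70026843 and 70030342, all in the first exon of 1 or another of its annotated transcripts, and 7 of them also carry an intron row.

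Runs of G were more frequent in 5' UTR peaks than in 5' UTRs at large. Sequence could be read for the 541 peaks that lie within 1 exon. GGGG occurred in 342 of them (63.2%, 95% Wilson interval 59.1 to 67.2), against 39.9% of 43834 windows of 100 bases that tile the longest 5' UTR of each gene in the RNA-seq table, and 47.7% of 2913 windows from the peaks' own genes. GGG, which is contained in GGGG, occurred in 91.3% of the peaks and 79.6% of all windows. GGGAG, which overlaps GGG, occurred in 44.2% and 23.1%. At least 4 runs of GGG with 1 to 7 bases between them, the spacing of a canonical G-quadruplex motif, occurred in 58 peaks (10.7%) and in 2.59% of all windows. In the windows from the peaks' own genes these shares were 83.5% for GGG, 30.7% for GGGAG and 5.22% for 4 runs.

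The same letters of the opposite strand gave no such difference. CCCC occurred in 36.4% of the peaks and 38.4% of all windows, CCC in 73.6% and 78.2%, CTCCC in 18.1% and 21.3%, and 4 runs of CCC in 2.77% and 3.0%. The peaks were 38.7% G and 27.3% C, against 29.9% G over all windows. Counted without regard to spacing, 3 or more separate runs of GGG stood in 61.4% of the peaks and 31.9% of windows, and 3 or more runs of CCC in 28.5% and 30.1%. ATG, the letters of a start codon, occurred in 48.2% of the peaks and 51.1% of windows.

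This held at each distance from the transcript start. Among midpoints in the first 100 bases, GGGG occurred in 60.6% of 188 peaks and 45.0% of 14030 windows. Between 100 and 300 bases it occurred in 66.9% of 248 peaks and 40.8% of 16470 windows, and beyond 300 bases in 59.6% of 104 peaks and 33.3% of 13334 windows. Within the 100-base window G was most frequent near the 5' end, with 42.2% over bases 11 to 20. It was 41.7% over the first 10 bases and 35.0% over the last 10. In all windows these values were 30.6% and 29.3%. G also fell along the window in 3' UTR peaks, from 28.3% to 24.3%, and in coding exon peaks, from 33.8% to 30.4%.

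**Figure D2:**
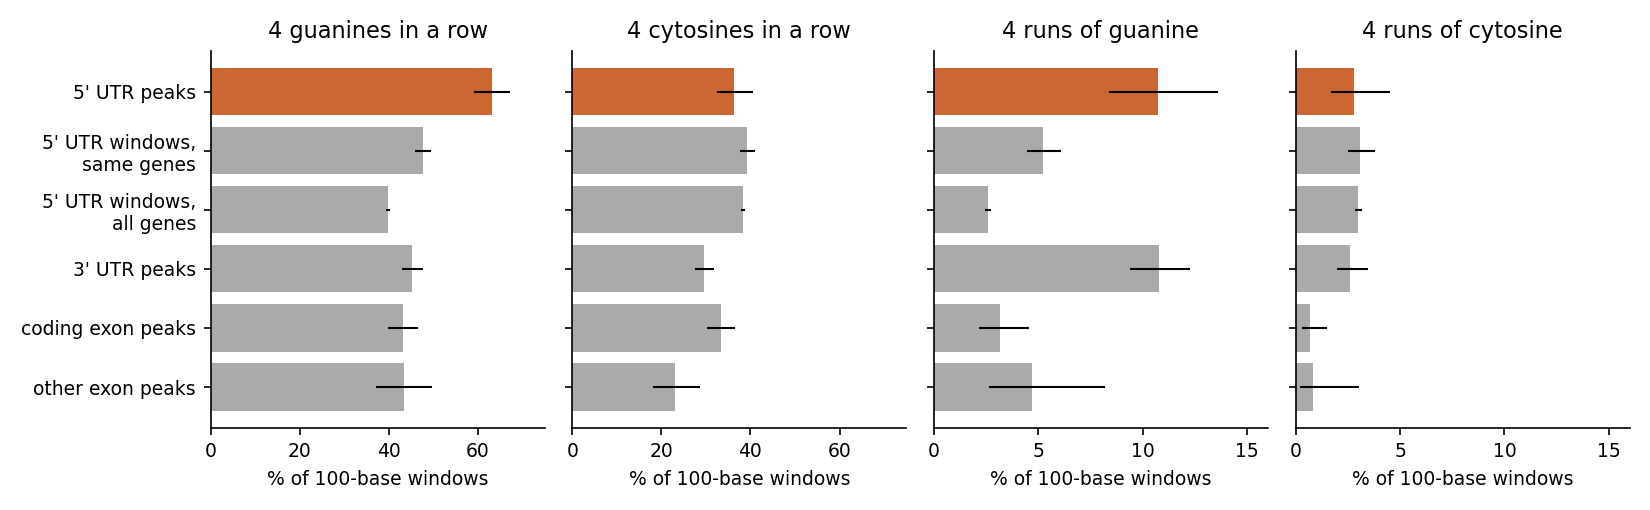
Percent of 100-base windows that hold 4 guanines or 4 cytosines in a row, or 4 runs of at least 3 with 1 to 7 bases between, in 5' UTR peaks, in windows of annotated 5' UTRs and in peaks of other exon classes. Lines are 95% Wilson intervals; the 5' UTR peaks stand at 63.2% for 4 guanines in a row and at 36.4% for 4 cytosines, and share their 10.7% of 4 guanine runs with the 3' UTR peaks, at 10.8%.

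Among the other exon classes, GGGG occurred in 45.3% of 1793 peaks in 3' UTRs, 43.2% of 857 in coding exons and 43.4% of 235 in other exons. These classes also have a lower G content. For 4 runs of GGG the 3' UTR peaks, at 10.8%, matched the 5' UTR peaks within the intervals. Peaks called in both lists, in the methamphetamine list alone and in the saline list alone held GGGG in 63.6%, 63.4% and 62.5%. Levels were compared for the 322 peaks with GGGG and the 182 without that have counts. The median signal value in the authors' deposited table was 1.69 with GGGG and 1.88 without. With GGGG, the median CPM of the saline libraries was 7.60, 7.09 and 10.4, and that of the methamphetamine libraries 9.90, 12.3 and 11.8 (in the order of replicate numbers). Without GGGG it was 7.60, 7.09 and 11 after saline, against 7.70, 8.16 and 10.1 after methamphetamine. The medians were thus equal in saline replicates 1 and 2, lower with GGGG in saline replicate 3 and higher with GGGG in the 3 methamphetamine libraries. These differences were not tested.

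Reads were found at 744 of the 801 peaks, while 57 have no line in the count table. At 228 of the 744, all 6 libraries had over 3 reads. At 116 (15.6%), over 50% of the summed CPM came from 1 library. That share was 16.7% for other exon peaks, 22.2% for 3' UTR peaks, 24.1% for coding exon peaks and 22.8% for intron peaks. The median CPM of 5' UTR peaks lay between 7.09 (saline replicate 2) and 11.2 (methamphetamine replicate 2) in the 6 libraries.

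The peak with the most reads was in Slc25a2, a single-exon gene for a mitochondrial ornithine carrier, at chr18:37638678-37638777. It had 10771 reads in saline replicate 1. It had 6 and 13 reads in the other saline libraries, and the methamphetamine libraries had 18, 3 and 5. Saline replicate 1 thus held nearly all reads of this peak, and the authors' deposited table lists this peak for methamphetamine only. The peak in Tex29 had 129, 121 and 139 CPM after saline and 64.9, 120 and 986 CPM after methamphetamine (libraries are given in the order of their replicate numbers here and below), so that methamphetamine replicate 3 alone stood above the rest.

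The peak of Ppp1cb, a catalytic subunit of protein phosphatase 1, at chr5:32459244-32459343 had 49.4, 177 and 179 CPM after saline and 244, 181 and 185 CPM after methamphetamine. Saline replicate 1 was low and the other 5 libraries lay between 177 and 244 CPM. Car11, which encodes a carbonic anhydrase-related protein, holds adjoining peaks at chr7:45699944-45700043 and chr7:45700044-45700143. The first had 106, 35.5 and 262 CPM after saline and 108, 230 and 118 CPM after methamphetamine. The second had 99.7, 68.6 and 226 CPM after saline and 127, 231 and 146 CPM after methamphetamine. In both Car11 peaks the groups overlapped, and saline replicate 3 and methamphetamine replicate 2 were the highest libraries of their groups.

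Genes for RNA-binding proteins were among the tallest peaks. Syncrip had 160, 52.0 and 194 CPM after saline and 92.4, 191 and 124 CPM after methamphetamine. Zrsr2, a factor of the minor spliceosome, had 193, 70.9 and 148 CPM after saline and 69.3, 190 and 129 CPM after methamphetamine. Pum2, a translational repressor that binds 3' UTRs, had 61.7, 73.3 and 150 CPM after saline and 174, 179 and 63.8 CPM after methamphetamine. The groups overlapped in all 3. In Syncrip and Zrsr2, saline replicate 2 and methamphetamine replicate 1 were the lowest of their groups.

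In the 2 remaining tall peaks the libraries fell apart in another way. Lamc1, a laminin subunit gene, had 16.1, 234 and 39.1 CPM after saline and 171, 40.8 and 222 CPM after methamphetamine. Thap11, a zinc-finger transcription factor gene, had 69.3, 149 and 63.6 CPM after saline and 154, 59.2 and 343 CPM after methamphetamine. In both, the high libraries were saline replicate 2 and methamphetamine replicates 1 and 3, which form one side of the first principal component. The part of that split in these values was not tested.

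**Figure D3:**
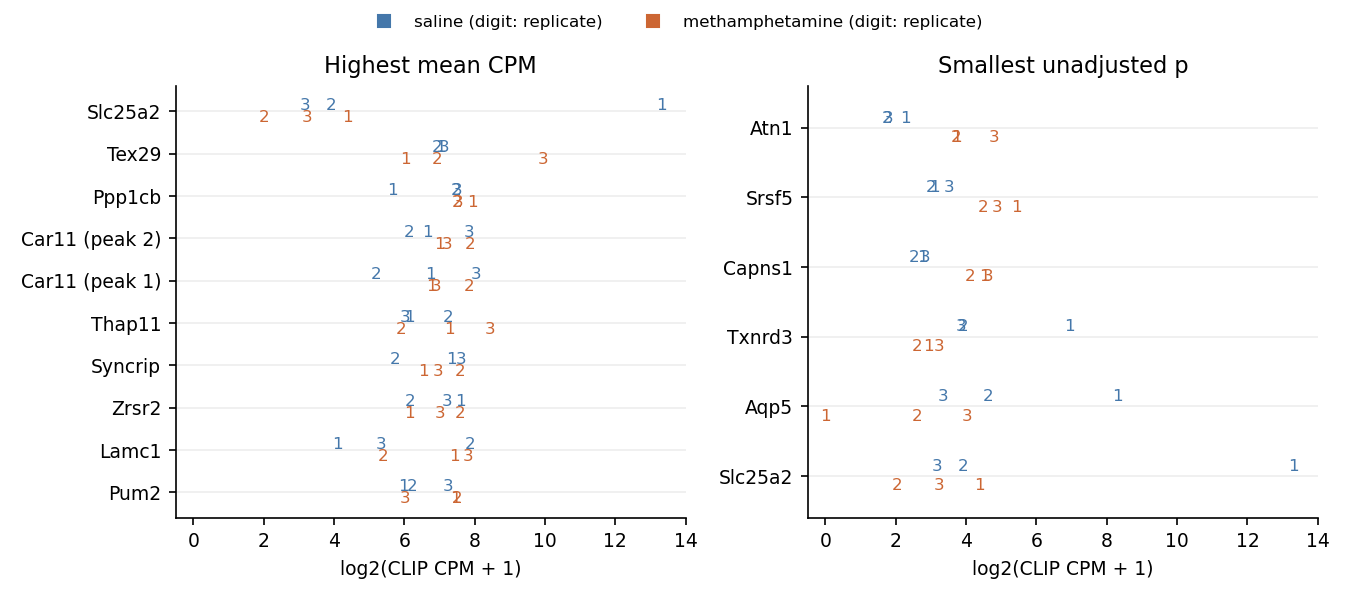
log2(CPM + 1) of the 10 5' UTR peaks with the highest mean CPM (left) and of the 3 with the smallest unadjusted p in each direction (right). Each digit is a library, numbered by replicate. Slc25a2, Txnrd3 and Aqp5 are high in saline replicate 1 alone. The 3 methamphetamine libraries of Atn1, Srsf5 and Capns1, called in the methamphetamine list alone, all lie above the saline libraries.

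Signal values in the authors' deposited table ranged from 0.79 to 5.59 over the 5' UTR peaks, with a median of 1.77. The highest in the methamphetamine list were Tex29 (5.48), Cdc20 (5.01) and Tmbim1 (4.31), and in the saline list Csrnp1 (5.59), Cdc20 (5.48) and Ankrd49 (5.13), in the authors' deposited table. The Cdc20 peak, at chr4:118437102-118437201, had 70.3, 66.2 and 56.3 CPM after saline and 36.3, 50.0 and 45.4 CPM after methamphetamine. All 3 methamphetamine libraries were below the saline libraries in CPM (with TMM scaling, which corrects for library composition, they overlapped), with a log2 change of -0.36 (SE 0.35) and an unadjusted p = 0.332 in edgeR's quasi-likelihood test. At Ankrd49, an ankyrin repeat gene, the saline libraries had 5, 2 and 43 reads and the methamphetamine libraries 0, 8 and 0.

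The Dlg4 peaks with counts ranged from a mean of 6.66 to 65.6 CPM over the 6 libraries. The tallest, at chr11:70029743-70029842, had 87.4, 28.4 and 97.2 CPM after saline and 51.7, 73.5 and 55.4 CPM after methamphetamine. The groups overlapped, and the log2 change was -0.00459 (SE 0.43). The 6 Phf23 peaks had means of 8.93 to 34.2 CPM, and the tallest is the one whose G-rich stretch is printed above. In Hdac6 the 4 peaks with counts adjoin each other and had means of 19.8 to 28.8 CPM.

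The first Hdac6 peak along the chromosome, 57 bases from the start codon, had 5.70, 16.6 and 11 CPM after saline and 29.7, 27.6 and 28.6 CPM after methamphetamine. All methamphetamine libraries lay above the saline libraries (edgeR log2 change 1.64, SE 0.57, unadjusted p = 0.0211, adjusted p = 0.9998 in edgeR's quasi-likelihood test). The peak beside it had 10.4, 16.6 and 21.4 CPM after saline and 19.8, 37.8 and 28.6 CPM after methamphetamine. There the groups overlapped in CPM. With TMM scaling they did not, at 12.4, 25.1 and 25.8 after saline and 37.0, 44.5 and 43.1 after methamphetamine. The log2 change, which uses that scaling, was 0.99 (SE 0.45).

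The study asked whether binding by hnRNP H changed after methamphetamine. Summed over all 5' UTR peaks it did not differ beyond the spread between pools. In the saline libraries, reads at 5' UTR peaks were 8.05%, 3.88% and 5.30% of the reads at all listed peaks. In the methamphetamine libraries they were 4.55%, 5.39% and 5.16%. The means were 5.03% ± 0.431 (SD, n = 3) after methamphetamine and 5.75% ± 2.12 (SD, n = 3) after saline, a difference of -0.711 percentage points (exact two-sided permutation p = 0.8). With 3 against 3 libraries this test cannot go below 0.1.

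The high value of saline replicate 1 came from the Slc25a2 peak. Without that peak, saline replicate 1 had 4.44%, and the difference turned to 0.494 percentage points (5.03% ± 0.434 after methamphetamine and 4.54% ± 0.714 after saline, exact two-sided permutation p = 0.4, n = 3 each). Within the library sets of the principal component the differences were then 0.518 points (saline replicates 1 and 3 against methamphetamine replicate 2) and 0.974 points. With the peak they were -1.29 and 0.975 points. Of the reads in 5' UTR, coding and 3' UTR peaks, the 5' UTR share was 22.8% after methamphetamine and 27.1% after saline (difference -4.27 points, exact permutation p = 0.7), and without the Slc25a2 peak the difference was 0.208 points (exact permutation p = 0.9). The share of 5' UTR peak reads that lay in peaks with GGGG was 68.8% ± 4.28 after methamphetamine and 67.2% ± 3.09 after saline (difference 1.62 points, exact permutation p = 0.5, n = 3 each), and the difference was -0.166 points without saline replicate 1.

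**Figure D4:**
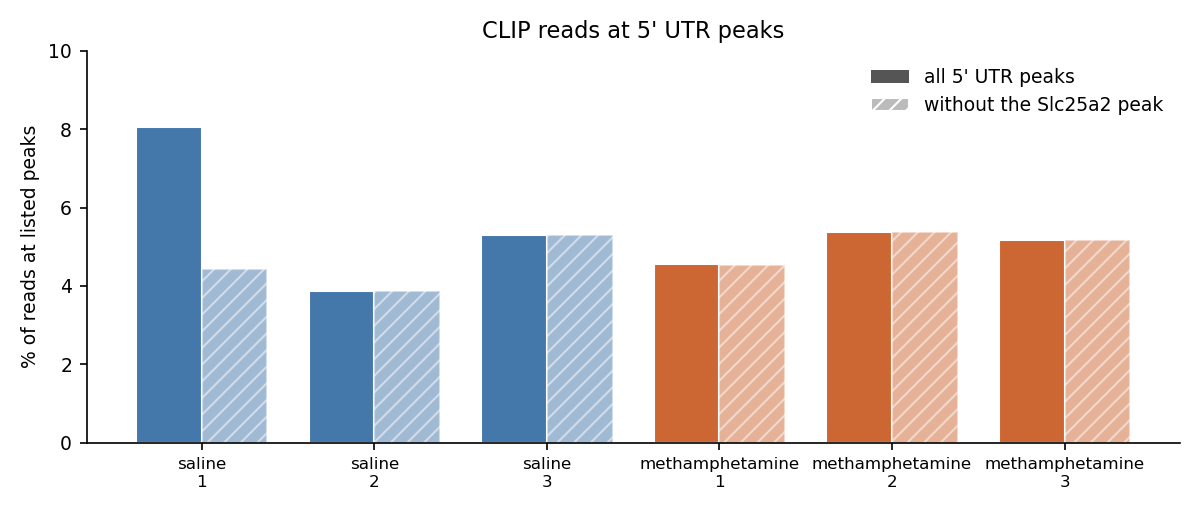
Percent of the reads at listed CLIP peaks that lay in 5' UTR peaks, for each library, with all 5' UTR peaks (full colour) and without the Slc25a2 peak (hatched). Saline replicate 1 goes from 8.05% to 4.44%, and the other 5 libraries lie between 3.88% and 5.39% either way.

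Peak by peak, 356 of the 801 had enough reads for edgeR's quasi-likelihood test, which ran on all 10358 peaks of the count table that passed its filter. None of the 356 passed an adjusted p of 0.05 (0 of 356, smallest adjusted p = 0.9998), against 0.0% of all tested peaks. At an unadjusted p under 0.05 there were 15, 12 higher and 3 lower after methamphetamine. That is 4.21% of the 356, beside 3.35% of all tested peaks (1.86% higher and 1.49% lower). DESeq2 gave 0 at an adjusted p under 0.05 and 18 at an unadjusted p under 0.05 (5.06%, beside 3.33% of all tested peaks). The biological coefficient of variation between pools, over all tested peaks, was 56%.

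The 3 peaks with the smallest p for a higher signal had few reads. Atn1, which encodes the corepressor atrophin-1, had 3.80, 2.36 and 2.45 CPM after saline and 12.1, 12.3 and 26.9 CPM after methamphetamine at chr6:124756345-124756444. Its log2 change was 2.74 (SE 0.66, unadjusted p = 0.0036). Capns1, the small subunit of calpains, had 5.70, 4.73 and 6.12 CPM after saline and 22.0, 16.3 and 23.5 CPM after methamphetamine at chr7:30193037-30193136. Its log2 change was 2.12 (SE 0.52, unadjusted p = 0.00386).

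Srsf5, an SR protein of the spliceosome, had 7.60, 7.09 and 10.4 CPM after saline and 41.8, 21.4 and 28.6 CPM after methamphetamine at chr12:80945605-80945704. Its log2 change was 2.14 (SE 0.56, unadjusted p = 0.00525). This peak is 5' UTR in all 6 coding transcripts of the gene. In all 3 peaks the methamphetamine libraries lay above every saline library, and each had an adjusted p = 0.9998 in edgeR's quasi-likelihood test. All 3 peaks were called in the methamphetamine list alone, so their direction is not independent of how they were chosen. Without saline replicate 1 the edgeR log2 changes of Atn1, Capns1 and Srsf5 were 2.92, 2.06 and 1.98. As differences of mean log2(TMM-scaled CPM + 1), they were 1.73, 1.33 and 1.17 within saline replicates 1 and 3 and methamphetamine replicate 2, and 2.77, 2.26 and 2.33 within the other 3 libraries.

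The 3 peaks with the smallest p for a lower signal each had by far their highest value in saline replicate 1. Txnrd3 and Aqp5 were called in the saline list alone and Slc25a2 in the methamphetamine list alone. The peak of Txnrd3 had 122, 14.2 and 13.5 CPM after saline and 6.60, 5.10 and 8.40 CPM after methamphetamine. Its log2 change was -2.61 (SE 0.94, unadjusted p = 0.0255), and -0.87 without saline replicate 1. All its methamphetamine libraries lay below every saline library, with and without TMM scaling. The peak of Aqp5, a water channel of secretory glands, had 315, 23.6 and 9.17 CPM after saline and 0, 5.10 and 15.1 CPM after methamphetamine. Its log2 change was -3.96 (SE 1.52, unadjusted p = 0.033), and -1.22 without saline replicate 1. For Slc25a2 the log2 change was -7.86 (SE 2.74, unadjusted p = 0.0219), and 0.22 without saline replicate 1.

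More of the tested 5' UTR peaks had a positive than a negative log2 change (259 against 97). Their median was 0.42, beside 0.047 over all tested peaks, 0.56 in 3' UTR peaks, 0.76 in other exons, 0.084 in coding exons and -0.047 in introns. The 5' UTR peaks were chosen from calls in these data, while all tested peaks also include positions outside the lists. Comparisons between them are therefore not free of that choice. The size of the excess of positive changes varied with the peaks and libraries that were used. It reversed only in the fit without a filter on low counts. Among all 744 peaks with counts, the mean CPM was higher after methamphetamine in 425 (57.1%, beside 48.4% of all listed peaks), and in 373 of 744 (50.1%, beside 43.9% of all listed peaks) without methamphetamine replicate 2. When edgeR was run with no filter on low counts, 347 changes were positive (46.6%, beside 55.8% of all peaks in that fit) and 397 negative. That fit also changed the values of tested peaks. The tallest Dlg4 peak went from -0.00459 to -0.509 and the first Car11 peak from 0.375 to -0.112. In TMM-scaled CPM the methamphetamine libraries lay wholly above the saline libraries in 32 of the 356 (8.99%, beside 4.33% of all tested peaks) and wholly below in 3 (0.843%, beside 3.62%). In CPM without that scaling they lay above in 22 (6.18%, beside 2.65%) and below in 9 (2.53%, beside 4.84%). Where an overlap is stated for a single peak without naming the scaling, it is in CPM.

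**Figure D5:**
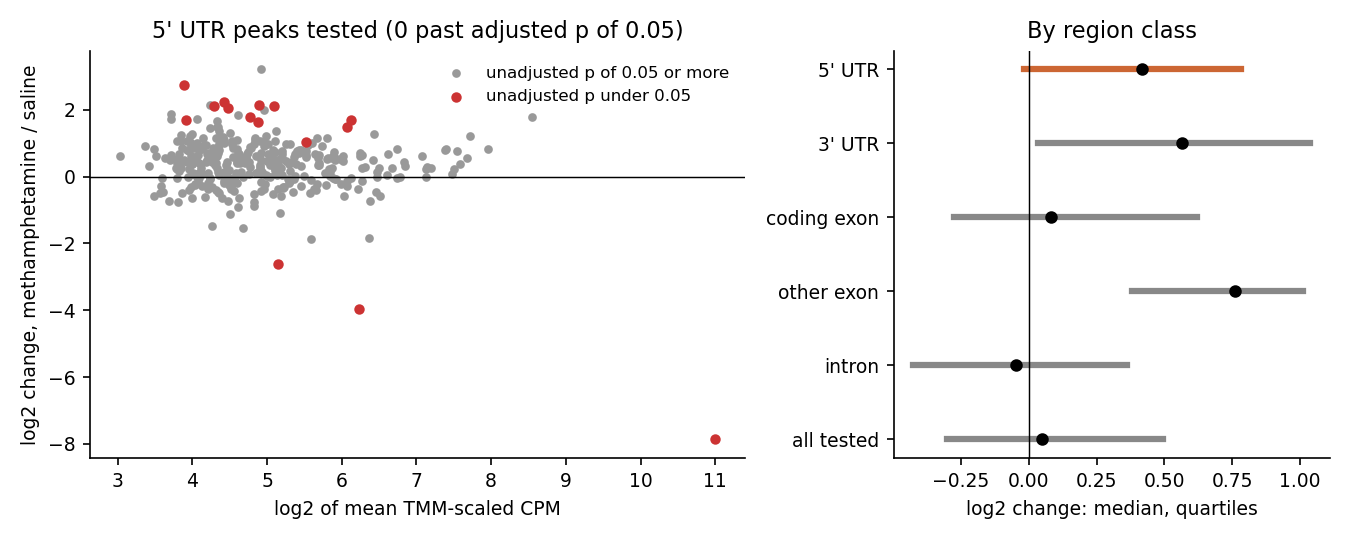
Left: log2 change after methamphetamine of the 356 tested 5' UTR peaks against their mean level, with the 15 peaks at an unadjusted p under 0.05 in red. Right: median (dot) and quartiles (line) of the log2 changes by region class; the 5' UTR median is 0.42 and the median over all tested peaks 0.047.

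The lists themselves give another view of the treatment. Of the 801 peaks, 308 were called in both lists, 260 in the methamphetamine list alone and 233 in the saline list alone. The overlap was 54.2% of the 568 peaks of the methamphetamine list and 56.9% of the 541 of the saline list. The 308 made up 38.45% of the 801. Calls in both lists were 31.9% of 3' UTR peaks, 30.7% of coding exon peaks, 37.1% of other exon peaks and 31.8% of intron peaks. The 5' UTR peaks were 5.74% of the 9903 positions called for methamphetamine and 5.67% of the 9537 called for saline. A call in 1 list did not mean that the reads were there alone. Among the 212 saline-only peaks with counts, 53 had a higher mean CPM after methamphetamine, and among the 229 methamphetamine-only peaks 43 had a higher mean CPM after saline. The Thap11 and Zrsr2 peaks, with reads in all 6 libraries, were called in the saline list alone.

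Genes with a 5' UTR peak were counted in 10 lists of genes chosen by symbol, beside 628 of all 18208 genes in the RNA-seq table (3.45%) and 5.34% of genes with a mean above 4 log2 CPM. The share was 13.3% for RNA binding and splicing (8 of 60), with Celf3, Celf4, Celf5, Elavl3, Hnrnpd, Hnrnpk, Hnrnpul2 and Srsf5. Of their 11 peaks 7 were tested, 1 was higher at an unadjusted p under 0.05 (Srsf5) and none lower. The peak of Hnrnpd, which encodes the AU-rich element binding protein AUF1, had 32.3, 21.3 and 116 CPM after saline and 34.1, 102 and 47.0 CPM after methamphetamine. That of Elavl3, a neuronal member of the Hu family, had 3.80, 9.46 and 22.0 CPM after saline and 20.9, 27.6 and 18.5 CPM after methamphetamine. Both overlapped between groups in CPM. With TMM scaling Hnrnpd overlapped and Elavl3 did not, at 4.52, 14.3 and 26.5 after saline and 39.1, 32.5 and 27.9 after methamphetamine.

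At the synapse, 5 of 62 postsynaptic genes (8.07%) carried 17 peaks, 11 of them in Dlg4. Gria3, an AMPA receptor subunit gene, had 39.9, 11.8 and 60.5 CPM after saline and 42.9, 44.9 and 52.1 CPM after methamphetamine. Gabra3, a GABA-A receptor subunit gene, had 45.6, 16.6 and 44.6 CPM after saline and 33.0, 50.0 and 38.6 CPM after methamphetamine. The methamphetamine libraries lay inside the range of the saline libraries for Gria3 and overlapped it for Gabra3, both in CPM. With TMM scaling Gria3 overlapped but left that range, with 80.3 in methamphetamine replicate 1 against at most 72.9 after saline. For Gabra3 all methamphetamine libraries were then above the saline libraries, at 61.7, 59.0 and 58.3 against 54.3, 25.1 and 53.7. Of 15 tested peaks 1 was higher at an unadjusted p under 0.05, in the AMPA receptor gene Gria2. Gria2 was named after its value was seen.

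Of 91 genes matched by symbol to the presynaptic release list, 6 carried a peak (6.59%). A match by symbol does not show a presynaptic role, and 1 of the 6, Rab35, is an endosomal GTPase. The syntaxin genes Stx16 and Stx4a, which encode membrane fusion proteins, gave the tallest peaks, and none of 3 tested passed an unadjusted p of 0.05. Stx16 had 6.65, 7.09 and 24.5 CPM after saline and 14.3, 27.6 and 21.8 CPM after methamphetamine. Ion channel genes with a peak were 8 of 151 (5.30%). Kcnj11, the pore of ATP-sensitive potassium channels, had 17.1, 35.5 and 25.1 CPM after saline and 34.1, 20.4 and 28.6 CPM after methamphetamine. Kcnq3, a subunit of the M-current channel, had 19.9, 23.6 and 30.0 CPM after saline and 15.4, 40.8 and 37.0 CPM after methamphetamine. Kcna1, a voltage-gated potassium channel gene, did not pass the filter on reads at its taller peak, where the saline libraries held 8, 11 and 14 reads against 16, 5 and 2 with methamphetamine.

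In the striatal dopamine and cAMP list, 6 of 77 genes (7.79%) carried a peak. Arpp21, a cAMP-regulated phosphoprotein of striatal neurons, had 19.0, 2.36 and 19.6 CPM after saline and 22.0, 24.5 and 16.8 CPM after methamphetamine. These overlapped, while with TMM scaling the methamphetamine libraries, at 25.3 to 41.2, lay above the saline libraries, at 3.58 to 23.6. Prkar1a, a regulatory subunit of protein kinase A, had 20.9, 14.2 and 22.0 CPM after saline and 15.4, 15.3 and 13.4 CPM after methamphetamine. The G protein subunit Gng5 had 20.9, 4.73 and 21.4 CPM after saline and 3.30, 18.4 and 6.72 CPM after methamphetamine. None of the 3 tested peaks had an unadjusted p under 0.05. Of 20 immediate early genes, 2 carried a peak (10.0%). At Fosl2 the saline libraries had 10, 5 and 20 reads and the methamphetamine libraries 3, 10 and 2. At Nr4a3 they had 8, 3 and 20 reads, and 2, 15 and 6. Neither was tested, and the groups overlapped in both.

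Housekeeping lists had shares near or below that of all genes. Translation genes with a peak were 6 of 171 (3.51%), all of them with an Eif symbol (Eif1, Eif1ad, Eif2s2, Eif4enif1, Eif5 and Eif5a) and no ribosomal protein gene. Eif2s2, the beta subunit of initiation factor eIF2, had 39.9, 40.2 and 41.0 CPM after saline and 27.5, 49.0 and 48.7 CPM after methamphetamine. Eif5a had 23.7, 18.9 and 17.1 CPM after saline and 7.70, 21.4 and 18.5 CPM after methamphetamine. Eif1ad had 80.6 CPM in methamphetamine replicate 3 and 7.09 to 13.3 CPM in the other 5 libraries. Oxidative phosphorylation genes with a peak were 2 of 107 (1.87%), Atp5g1 and the assembly factor gene Ndufaf8, neither of which passed the filter on reads.

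Small GTPase genes and their partners with a peak were 10 of 178 (5.62%), and ubiquitin and proteasome genes 9 of 243 (3.70%). Arhgap29, a GTPase-activating protein gene, had 74.1, 68.6 and 80.1 CPM after saline and 38.5, 79.6 and 85.7 CPM after methamphetamine. The tallest of the 4 Arf3 peaks had 25.6, 47.3 and 60.5 CPM after saline and 62.7, 62.3 and 60.5 CPM after methamphetamine, and Rab5a, an early endosome GTPase, had 13.3, 4.73 and 55.7 CPM after saline and 44.0, 40.8 and 57.1 CPM after methamphetamine. In both, the methamphetamine libraries overlapped saline replicate 3 in CPM. With TMM scaling Rab5a still overlapped, and Arf3 did not, at 30.5, 71.7 and 72.9 after saline and 117, 73.4 and 91.2 after methamphetamine. Of 6 tested GTPase peaks 1 was higher at an unadjusted p under 0.05, and of 6 ubiquitin peaks none. Usp32 had 62.7, 30.7 and 103 CPM after saline and 37.4, 116 and 58.8 CPM after methamphetamine. Ubp1, which matches the ubiquitin list by symbol but encodes a transcription factor, had 35.1, 35.5 and 56.9 CPM after saline and 22.0, 63.3 and 43.7 CPM after methamphetamine.

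The genes with a 5' UTR peak were expressed above the typical gene. Their median level was 5.13 log2 CPM over 628 genes, beside 3.44 over all 18208 genes of the RNA-seq table. Over 697 peaks, the height of a peak went only weakly with the level of its gene (Spearman rho 0.16 across peaks, which share libraries and sometimes a gene). Of 629 genes with a 5' UTR peak on their own strand, 256 (40.7%) also had a listed peak in an intron, 90 (14.3%) in a 3' UTR and 63 (10.0%) in a coding exon. For 317 (50.4%) the lists held no peak outside the 5' UTR.

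RNA levels of these genes were not called different between treatments. With limma, 0 of 628 passed an adjusted p of 0.05 (smallest adjusted p = 0.9998), as did 0.0% of all genes. At an unadjusted p under 0.05 there were 6, 2 higher and 4 lower (0.955%, beside 1.52% of all genes, 0.555% higher and 0.961% lower). The median log2 change was -0.021, beside 0.002 over all genes. edgeR on the reads recovered from the log2 values gave 0 genes at an adjusted p under 0.05. At an unadjusted p under 0.05 it gave 5 of 576 (0.868%, beside 0.82% of all genes in that fit). Without methamphetamine replicate 2, limma gave an unadjusted p under 0.05 for 33 of 628 (5.25%, beside 5.26% of all genes) and an adjusted one for 0. With the library set as a factor it gave 10 (1.59%, beside 2.97% of all genes) and 0.

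Of the 2 genes higher at an unadjusted p under 0.05, Sytl2, which encodes an effector of Rab27 GTPases, had 4.06, 4.01 and 4.15 log2 CPM after saline and 4.76, 4.39 and 4.50 log2 CPM after methamphetamine. Its log2 change was 0.47 (SE 0.20, limma unadjusted p = 0.0395) with no overlap between groups. Tmem178 had 4.52, 5.17 and 4.17 log2 CPM after saline and 5.06, 5.44 and 6.06 log2 CPM after methamphetamine, with a log2 change of 0.90 (SE 0.32, limma unadjusted p = 0.0194). Its groups overlapped.

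Among the lower genes, Ethe1, a mitochondrial sulfur dioxygenase gene, had 3.65, 3.81 and 3.95 log2 CPM after saline and 2.94, 3.31 and 3.17 log2 CPM after methamphetamine (log2 change -0.66, SE 0.24, limma unadjusted p = 0.0218). Metrnl, which encodes a secreted protein, had 6.02, 5.76 and 5.79 log2 CPM after saline and 5.31, 5.63 and 4.83 log2 CPM after methamphetamine (log2 change -0.60, SE 0.22, limma unadjusted p = 0.0228). Vmac had a log2 change of -0.63 (SE 0.25, limma unadjusted p = 0.034). The groups did not overlap in these 3 genes, and all had an adjusted p = 0.9998.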

How the data were processed

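CLIP with an antibody to hnRNP H and RNA-seq were run on pools of striata, per the labels, and mapped to mm10. The submitters' processing notes name Trimmomatic, UMI-tools, STAR, bedtools, Subread, featureCounts, limma and edgeR without roles. The peak caller is not given in the sources used here. The deposited peak lists, 1 per treatment, give each 100-base window a signal score, whose scale is not stated, and a q-value by the authors, with region rows per transcript. How replicates entered the lists is not given in the sources used here. The deposited count table holds raw reads per window on 172271 lines, reduced here to 147438 distinct positions. The RNA-seq values were deposited as log2 CPM with an offset of 0.5 reads. The values in all 6 RNA-seq libraries are whole reads within a tolerance of 0.01, from which the depths were taken.

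CLIP CPM here are reads per 1000000 reads at all positions of the count table. Counts were fitted with edgeR 4.0.16 (filterByExpr, TMM, quasi-likelihood F test) over the whole table, and log2 CPM with limma 3.58.1 (trended eBayes) over all genes, each with Benjamini-Hochberg adjustment. DESeq2 1.42.0 was an alternative. Shares of reads were compared by exact permutation. The fits were tested on simulated data with known changes. They missed all simulated CLIP log2 changes of 2 and most simulated RNA-seq log2 changes of 1. The absence of calls therefore does not show that changes of those sizes were absent. Positions in transcripts and sequences came from GENCODE M21 on GRCm38, the build of the files. Peaks crossing an exon border were left out of sequence counts. No column of other samples was used (0 columns).

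The peaks, gene lists and rules were chosen with earlier results of these data known. Peaks named are the 10 with the highest mean CPM, the 3 with the smallest p in each direction, the 3 with the highest signal in each list, the peaks of the 3 genes with most peaks, and up to 3 per gene list, of which the text gives a selection. Genes named for RNA are the 3 with the smallest p in each direction, of which higher ones were 2 at an unadjusted p under 0.05. Alternatives were other scalings, no count filter, other class rules, a term for replicate number or library set, and each library left out.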

Additional observations from a re-analysis of the deposited data

How the results depend on the processing

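The number of 5' UTR peaks was 801. It was 483 at or above the median signal of each list, 313 and 312 with an overlap of at least 1 or 50 bases with the other list, and 528 with the whole window in 5' UTR rows. It was 779, 752, 744 and 750 under other class rules, the last, by strand, chosen after seeing the data.

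The count of called CLIP peaks, 0, stayed at 0 under every alternative but the absence of a count filter, which gave 10 of 744. Of these 10 only 2 had passed the filter. In 9 of them, all lower after methamphetamine, saline replicate 1 held 85.6% to 99.5% of the summed CPM, and the other, Rnh1, had reads in methamphetamine replicates 1 and 3 only. Leaving out each library gave 0 calls and 9 (saline replicate 1) to 33 (methamphetamine replicate 2) peaks at an unadjusted p under 0.05. The 9 were 2.13% of the members tested, beside 2.42% of all tested peaks, and the 33 were 8.17%, beside 8.42%. Without saline replicate 3 there were 30 (7.46%, beside 3.52%). The members' median log2 change was positive with every scaling and library left out, from 0.22 to 0.52, and -0.088 without a count filter.

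The difference in the share of listed reads, -0.711 points, was 0.965 without the 1% of peaks with the most reads, 0.494 without the Slc25a2 peak, 0.842 with reads capped at the 99th percentile and 0.39 for whole-window peaks. It ranged from -1.64 to 0.443 with each library left out, and from 0.165 to 0.873 when the Slc25a2 peak was also left out. The difference in the share of exon reads, -4.27 points, was 0.208 without the Slc25a2 peak, 0.205 for whole-window peaks, and -7.97 to 1.09 with each library left out. The difference in the share of reads in GGGG peaks, 1.62 points, was -0.166 to 4.05 with each library left out. The positive values without saline replicate 1 and without the Slc25a2 peak rest on the same reads. The cause of the other reversals was not tested.

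The count of called genes in RNA-seq was 0 under every alternative. At an unadjusted p under 0.05 there were 1 (without saline replicate 1) to 33 (without methamphetamine replicate 2). These were 0.159% (beside 1.05% of all genes) and 5.25% (beside 5.26%). The median change was -0.0415 to 0.0111 with each library left out.

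The replicate numbers did not pair the libraries. The deviations of same-numbered libraries from their group means correlated at -0.368, -0.549 and -0.082 in CLIP and -0.346, -0.821 and -0.489 in RNA-seq, and no library correlated best with its own number. With the replicate number as a block there were again 0 calls. At an unadjusted p under 0.05 there were then 12 peaks (3.37%, beside 1.23% of all tested peaks) and 2 genes (0.318%, beside 0.791% of all genes). The mean differences over same-numbered pairs were -0.711, -4.27 and 1.62 points. These equal the differences of the group means by arithmetic and are no check on the pairing. With the library set as a factor, 8 peaks (2.25%, beside 2.52% of all tested peaks) had an unadjusted p under 0.05. So did 10 genes (1.59%, beside 2.97% of all genes). Reads per peak limit what can be seen: 356 of 744 peaks could be tested, and saline replicate 2 had 0 reads at 135 of the 744.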

Other observations

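At 306 further listed positions the window touches a 5' UTR row but its midpoint lies elsewhere. These were not counted as 5' UTR peaks.

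The peaks whose 5' UTR row lies on the opposite strand include tall ones. Csrnp1, an immediate early transcription factor gene, had 138, 9.46 and 106 CPM after saline and 3.30, 154 and 21.8 CPM after methamphetamine at such a peak (in the order of replicate numbers). The 3 high libraries were saline replicates 1 and 3 and methamphetamine replicate 2, which share a side of the first principal component. The Tmbim1 peak, of the same kind, holds no run of 3 G, and its CPM were 12.3, 18.9 and 16.5 after saline and 23.1, 9.19 and 26.9 after methamphetamine. What transcript these reads come from was not tested.

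Without a count filter the calls named a few peaks that the tested set left out. Rnh1, the ribonuclease inhibitor gene, had 0 reads in all 3 saline libraries and 20, 0 and 10 reads after methamphetamine. Dio3, a thyroid hormone deiodinase gene, had 234 reads in saline replicate 1 and 0 to 6 in the other 5 libraries, and Rhno1 had 176 reads there and 0 to 4 elsewhere. These 3 were picked after their values were seen.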
